A study of Mus musculus with 9 samples.

Results

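Myotube maturation was followed in C2C12 cells, a line of mouse myoblasts that stop dividing, fuse and build contractile fibres when serum growth factors are withdrawn. The 3 groups at day 5 of differentiation were an Fkbp4 knockdown, an Fkbp5 knockdown and a Control, and the same 3 genotypes at day 3 were set against them, with 1 library for each genotype and day. These 6 of the 9 libraries of the series were compared by pairing day 5 with day 3 within each genotype, so that the 3 genotypes stood in for replicates, and day 0 is shown only to place a level. Fkbp4 and Fkbp5 encode related immunophilins that bind Hsp90, and the series title ties Fkbp5 to the cell cycle kinase Cdk4. All groups were grown in serum as myoblasts and were switched at day 0 to insulin, transferrin and selenium, with medium containing HS named for later changes. The labels state neither the method of knockdown nor whether libraries came from separate cultures, so that the p values measure the spread between these libraries. The genes described are the nuclear genes with a mean of at least 5 CPM (counts per 1000000 reads, normalised between libraries) over the 6 libraries, which were 10791 of the 47728 genes listed, and 10781 of them could be tested.

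Libraries held 4133137 to 4863068 reads on genes at day 5 and 4260605 to 5568486 at day 3. The share of reads on mitochondrial genes was 10.1% in the Fkbp5 knockdown at day 5 and between 3.11% and 5.01% in the other 5 libraries. Fkbp4 stood at 24 and 27.0 CPM at days 5 and 3 in the Fkbp4 knockdown, against 137 and 143 CPM in the Control. Fkbp5 stood at 4.59 and 3.17 CPM at days 5 and 3 in the Fkbp5 knockdown, against 14.7 and 7.32 CPM in the Control. Fkbp5 was itself higher at day 5 (log2 fold change 0.92, SE 0.21, adjusted p = 0.0413), a call that ended without the Control pair (adjusted p = 0.249), without the Fkbp4 knockdown pair (adjusted p = 0.188) and in DESeq2 (adjusted p = 0.379). Of 10 skeletal muscle markers 5 rose at day 5, and their summed level was 15500 to 19100 CPM at day 5 and 9140 to 12500 CPM at day 3. Markers of adipocytes, bone and cartilage, immune and endothelial cells summed to at most 10.5 CPM in any of the 6 libraries, and 6 neuron and glia markers summed to 118 to 156 CPM at day 5 and 135 to 222 CPM at day 3. Tubb3, a neuronal tubulin, carried nearly all of that sum, at 117 to 154 CPM at day 5 and 134 to 221 CPM at day 3. Adipoq, Plin1, Cidec, Cidea, Lep, Retn, Ibsp, Col2a1, Acan, Cd3e, Adgre1, Cdh5 and Snap25 had no read in these libraries. In bulk samples such as these, more cells of a type and more RNA per cell cannot be told apart.

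After fusion, a myotube assembles its sarcomeres, in which myosin thick filaments slide along actin thin filaments held at the Z-disc. In the mouse an embryonic and a perinatal myosin heavy chain come before the adult fast and slow isoforms, and the calcium release machinery that couples excitation to contraction is laid down in the same period. Cells that stay outside the myotubes as undifferentiated reserve cells are known to depend on Notch signalling.

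At day 5 all 8 tested myosin heavy chains and 48 of 68 tested sarcomere genes were called higher than at day 3, while 6 of 14 Notch pathway genes, 14 of 24 cholesterol synthesis genes and the cell cycle inhibitor Cdkn1c were called lower. Calls were made with edgeR's quasi-likelihood test at a Benjamini-Hochberg adjusted p below 0.05. Of the 12122 genes tested, 458 were called higher at day 5 (3.78%) and 254 lower (2.10%), and among the genes described here 430 were called higher and 245 lower. At least 2-fold changes were found for 168 of the 430 and 34 of the 245, and the median change over all genes described was -0.002 on the log2 scale. All of the 430 had the same sign in each genotype, as had 244 of the 245. Over all 10781 tested genes described, 2449 rose in each genotype and 2392 fell in each. A call is made from these same paired changes, so that the shared sign is no separate support. The day 5 and day 3 libraries did not overlap for 297 of the 430 and 196 of the 245, where 19% of all genes described did not overlap.

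In most of the genes called higher the mean at day 3 was already above that at day 0. Day 0 lay below day 3 in 338 of the 430, day 5 lay above day 0 in 395, and 68 had under 1 CPM at day 0. Day 0 was scaled over all 9 libraries and days 3 and 5 over the 6, so that comparisons with day 0 are approximate. The genes called lower were of mixed history: 147 of the 245 had been lower at day 0 than at day 3, and 94 were at day 5 still at or above their day 0 mean. The day 3 values that gave the calls also enter these counts, so that such a history is partly selected for. Shares over all genes described were not computed for day 0. The counts with day 0 therefore show no trait particular to the called genes. The median change of the genes called higher was 0.83 in the Fkbp4 knockdown, 0.70 in the Fkbp5 knockdown and 0.87 in the Control, and that of the genes called lower was -0.61, -0.59 and -0.61. The number of calls rests on the pairing and on single genotypes. It was 48 with the genotype term left out, 172 without the Control pair and 1142 without the Fkbp5 knockdown pair, against 712 with all 6 libraries, and none of the 712 changed sign in any of these.

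**Figure D1:**
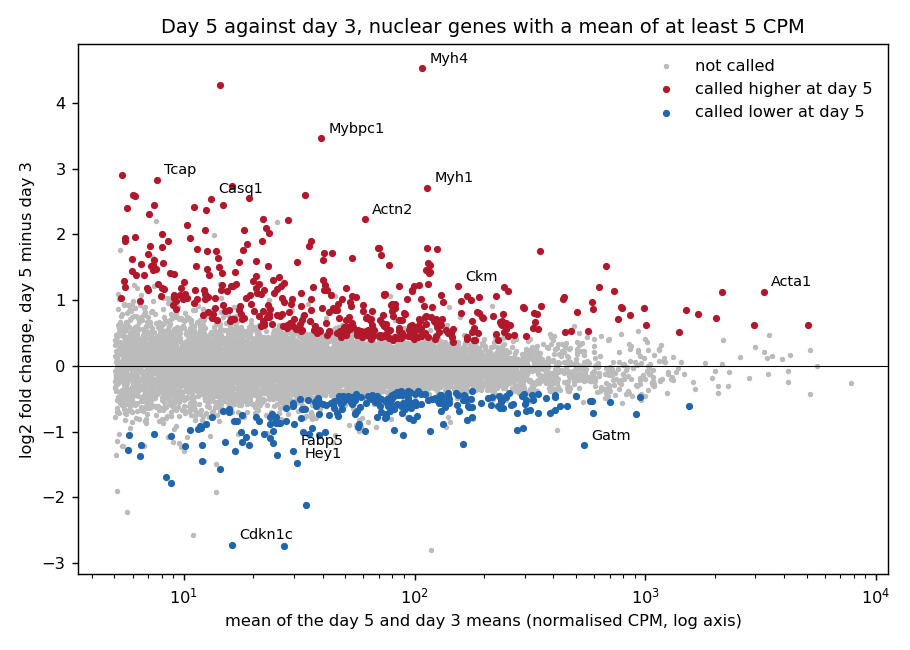
Log2 fold change between day 5 and day 3 (vertical axis, day 5 minus day 3) against the mean of both days in normalised CPM (horizontal axis, log scale) for the genes described. Red points are the 430 genes called higher and blue points the 245 called lower at day 5. Myh4 at 4.53 lies highest and Cdkn1c at -2.72 is among the lowest.

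The myosin heavy chains, the motor subunits of the thick filament, gave the widest changes: all 8 tested members rose, with a median of 2.30 on the log2 scale against -0.002 for all genes described. Myh4, the adult fast IIb isoform (chr11:67238029-67260446, + strand, GRCm38), had 368, 19.9 and 233 CPM at day 5 in the Fkbp4 knockdown, the Fkbp5 knockdown and the Control, against 14.8, 2.04 and 8.97 CPM at day 3. Every day 5 library stood above every day 3 library, and the rise was 23.1-fold (log2 fold change 4.53, SE 0.19, adjusted p = 5.2e-05). Myh4 had been at 0.201, 0 and 0.666 CPM at day 0 in the same order of genotypes, and its 9 reads at day 3 in the Fkbp5 knockdown make that library's value imprecise.

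Myh1, the adult fast IIx isoform, had 292, 69.5 and 236 CPM at day 5 in the Fkbp4 knockdown, the Fkbp5 knockdown and the Control, against 33.0, 24 and 25.0 CPM at day 3. The 3 genotypes were close at day 3 and spread at day 5, where the Fkbp5 knockdown was lowest, and the common rise was 6.53-fold (2.71, SE 0.29, adjusted p = 0.00194). Myh8, the perinatal isoform, had 85.6, 14.0 and 74.7 CPM at day 5 against 11.8, 5.22 and 9.68 CPM at day 3 in the same order (2.60, SE 0.24, adjusted p = 0.00136). Again no day 5 library was as low as any at day 3. Myh3, the embryonic isoform, was by far the most abundant, at 3810, 1800 and 3250 CPM at day 5 against 1740, 890 and 1380 CPM at day 3, and rose 2.19-fold (1.13, SE 0.12, adjusted p = 0.00209). Myh2, the adult IIa isoform, rose by 2.58 (SE 0.37, adjusted p = 0.00685) to 13.7, 3.28 and 14.7 CPM at day 5, against 1.23, 1.36 and 2.60 CPM at day 3. Myh7, the slow isoform shared with the heart, rose by 2.01 (SE 0.21, adjusted p = 0.00165), Myh6, the cardiac alpha isoform, by 1.95 (SE 0.31, adjusted p = 0.0104) and Myh7b, a slow-type relative, by 1.16 (SE 0.16, adjusted p = 0.00626). For these last 3 the day 5 and day 3 groups overlapped, because the Fkbp5 knockdown at day 5 stood below other genotypes at day 3. The call of Myh2 ended without the Control pair (adjusted p = 0.0672), and that of Myh6 without the Fkbp4 knockdown pair (adjusted p = 0.105).

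Within the myosin heavy chain reads of each library the composition moved away from Myh3. Myh3 took 80.3%, 92.7% and 83.2% of them at day 5 in the Fkbp4 knockdown, the Fkbp5 knockdown and the Control, against 94.1%, 94.5% and 94.2% at day 3. The adult fast isoforms Myh1, Myh2 and Myh4 together took 14.2% (95% Clopper-Pearson interval 13.7 to 14.6), 4.77% (4.34 to 5.24) and 12.4% (11.9 to 12.9) at day 5, against 2.64% (2.35 to 2.97), 2.91% (2.42 to 3.47) and 2.50% (2.13 to 2.92) at day 3. The day 3 shares of these isoforms together were alike within counting error in the 3 genotypes, and at day 5 the Fkbp5 knockdown lay below the other 2. Myh4 alone was already lower in the Fkbp5 knockdown at day 3, at 0.217% (0.0991 to 0.411). It took 0.799% (0.638 to 0.988) in the Fkbp4 knockdown and 0.614% (0.435 to 0.842) in the Control at day 3. Intervals cover counting error only, since reads were not collapsed to molecules. Of all 31-base words in the transcripts of Myh1, 42.9% occur in another gene, and the figure is 34.5% for Myh2, 30.4% for Myh4, 29.2% for Myh6, 27.9% for Myh7, 18.6% for Myh8 and 11.1% for Myh3, so that reads may have been lost or shared between these paralogs.

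**Figure D2:**
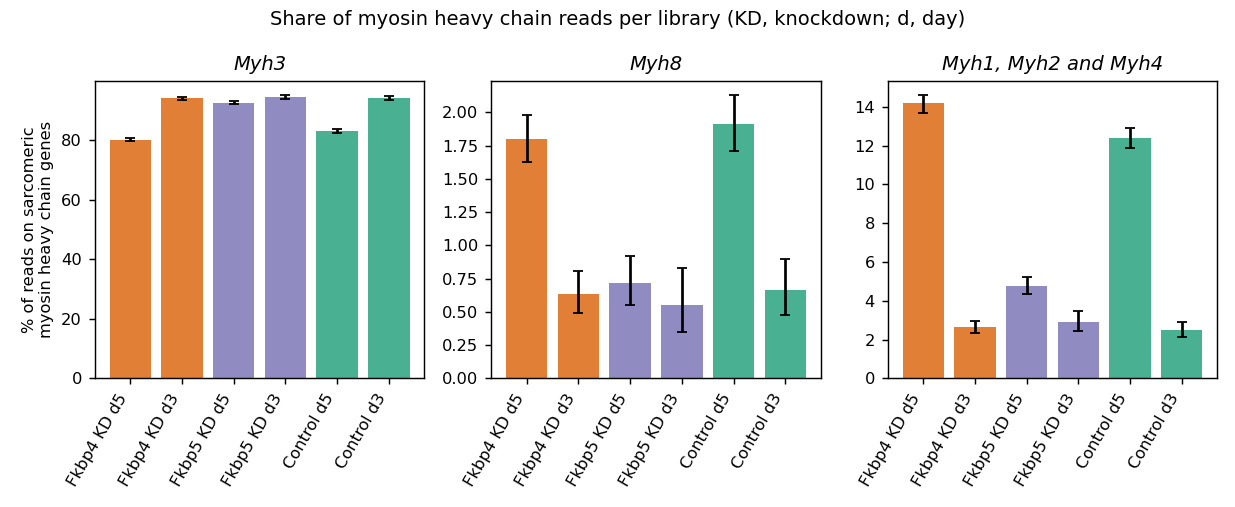
Share of all reads on sarcomeric myosin heavy chain genes taken by Myh3, by Myh8 and by the adult fast isoforms Myh1, Myh2 and Myh4 together (vertical axes, percent, each with its own range from 0), in 1 bar per library, with day 5 left of day 3 in each genotype. Error bars are 95% Clopper-Pearson intervals. The adult fast share is 14.2% and 12.4% in the Fkbp4 knockdown and the Control at day 5, 4.77% in the Fkbp5 knockdown at day 5, and between 2.50% and 2.91% at day 3.

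Promoter windows of the myosin genes are shown because 3 neighbours on chromosome 11 that rose together carry the same word. Windows ran from 250 bases before to 50 after each RefSeq start (GRCm38.p6). A MEF2 box, the AT-rich element bound by the MEF2 factors, was searched in them on both strands. The search used a pattern that allows alternative letters, so that the box reads TTATTTATAG in Myh4 and CTATATATAG in Myoz2. It was found in 3 of 9 windows of the 8 myosin heavy chains. The windows of Myh2, Myh3, Myh6, Myh7 and Myh7b, which also rose, held none. The box was also found in 10 of 46 windows (21.7%) held by 40 of the 48 sarcomere genes called higher, and in 1.86% of all 32851 windows. An E box of the letters CAGCTG, a form read by MyoD and myogenin, was found in 20 of the 46 sarcomere windows (43.5%) and in 16.3% of all windows. The stretches around the MEF2 box lie at chr11:67237590-67237679 (Myh4), chr11:67276985-67277074 (Myh8) and chr11:67199852-67199940 (Myh1), all on the + strand, with the box starting at positions -182, -99 and -211 from the start site. Capitals mark the box, which reads the same in the 3 genes. A match is a description of the letters and shows no binding.
Myh4: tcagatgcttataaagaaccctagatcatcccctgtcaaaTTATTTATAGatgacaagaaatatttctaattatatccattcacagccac
Myh8: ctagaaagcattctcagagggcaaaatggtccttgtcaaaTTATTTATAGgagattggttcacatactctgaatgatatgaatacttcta
Myh1: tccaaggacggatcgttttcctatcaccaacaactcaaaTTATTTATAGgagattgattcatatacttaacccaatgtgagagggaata

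Mef2c, which encodes one of the MEF2 factors, rose 2.35-fold. It had 169, 74.3 and 204 CPM at day 5 in the Fkbp4 knockdown, the Fkbp5 knockdown and the Control, against 60.3, 52.4 and 66.1 CPM at day 3 (1.23, SE 0.19, adjusted p = 0.00926). No library of the 2 days overlapped, and the call ended without the Control pair (adjusted p = 0.0771). Of 20 tested myogenic transcription factors Mef2c, Klf5 and Rbm24 rose and none fell, with a list median of -0.02, and Klf5 was not called without the Control pair (adjusted p = 0.0684). Myod1, the factor that commits myoblasts, had 98.9, 104 and 107 CPM at day 5 and 121, 111 and 121 CPM at day 3, a change of -0.19 (SE 0.09, adjusted p = 0.267). Myog, myogenin, had 248, 237 and 277 CPM at day 5 against 322, 152 and 357 CPM at day 3, and its common change was -0.04 (SE 0.19, adjusted p = 0.916). The Fkbp5 knockdown alone held more Myog at day 5 than at day 3, by 0.64 on the log2 scale, and the other genotypes held less, by -0.38 in the Fkbp4 knockdown and -0.36 in the Control. Without the Fkbp5 knockdown pair Myog was called lower (-0.38, adjusted p = 0.0331). The difference between genotypes was 1.01 (SE 0.16, adjusted p = 0.0415). It missed the threshold when only the genes described were tested (adjusted p = 0.0711) and in DESeq2 (adjusted p = 0.829).

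Over the 5 sarcomere lists, that is the heavy chains above with light chains, thin filament, thick filament with M-band, and Z-disc, 48 of 68 tested members rose, 2 fell and 18 were not called, with a median of 0.76. The change was positive in all 3 genotypes for 55 of the 68 and negative in all 3 for 5, where it was positive in all 3 for 2449 of the 10781 tested genes described. The number called higher was 25 without the Control pair, 34 without the Fkbp4 knockdown pair and 51 without the Fkbp5 knockdown pair. In the thick filament and M-band list 10 of 14 rose. Mybpc1, slow myosin-binding protein C (chr10:88518279-88605152, - strand), had 105, 23.4 and 89.4 CPM at day 5 in the Fkbp4 knockdown, the Fkbp5 knockdown and the Control, against 9.87, 3.17 and 6.14 CPM at day 3, an 11.0-fold rise (3.46, SE 0.18, adjusted p = 0.00012). All 3 day 5 values lay above the highest day 3 value. Trim63, the muscle ubiquitin ligase MuRF1 that sits at the M-band, rose by 1.64 (SE 0.18, adjusted p = 0.00201), and Myom1, which encodes the M-band linker myomesin 1, by 1.57 (SE 0.17, adjusted p = 0.00209).

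At the Z-disc 8 of 21 rose, and Xirp2 and Pdlim3 fell. Tcap, telethonin, which caps titin there, had 14.7, 9.18 and 16.1 CPM at day 5 and 2.29, 1.13 and 2.12 CPM at day 3 in the order Fkbp4 knockdown, Fkbp5 knockdown and Control (2.83, SE 0.24, adjusted p = 0.00124). Actn2, muscle alpha-actinin, had 161, 38.0 and 105 CPM at day 5 and 25.7, 12.2 and 23.1 CPM at day 3 (2.23, SE 0.17, adjusted p = 0.000841). For both genes the 2 days were separated in all libraries. Csrp3, muscle LIM protein, had its highest day 5 value in the Fkbp5 knockdown, with 46.3, 90.1 and 75.2 CPM at day 5 and 27.5, 25.6 and 37.3 CPM at day 3 (1.19, SE 0.19, adjusted p = 0.00926). Its call ended without the Control pair (adjusted p = 0.0588).

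In the thin filament list 17 of 19 rose, with a median of 0.78. Acta1, skeletal actin, had 5000, 3450 and 4930 CPM at day 5 and 2260, 1450 and 2500 CPM at day 3 in the same order, a 2.18-fold rise (1.13, SE 0.13, adjusted p = 0.00244). All troponin genes named here rose, fast and slow alike: Tnnt3, fast troponin T, by 1.19 (SE 0.11, adjusted p = 0.00124), Tnnt1, slow troponin T, by 1.06 (SE 0.10, adjusted p = 0.00136), Tnni2, fast troponin I, by 0.89 (SE 0.11, adjusted p = 0.00322) and Tnni1, slow troponin I, by 0.88 (SE 0.12, adjusted p = 0.00519). Of the 6 tested members of the light chain list 5 rose, led by Myl4, the embryonic light chain, with 1070, 747 and 1160 CPM at day 5 and 365, 225 and 483 CPM at day 3 (1.51, SE 0.12, adjusted p = 0.00103). Its day 5 and day 3 values were far apart in each genotype.

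**Figure D3:**
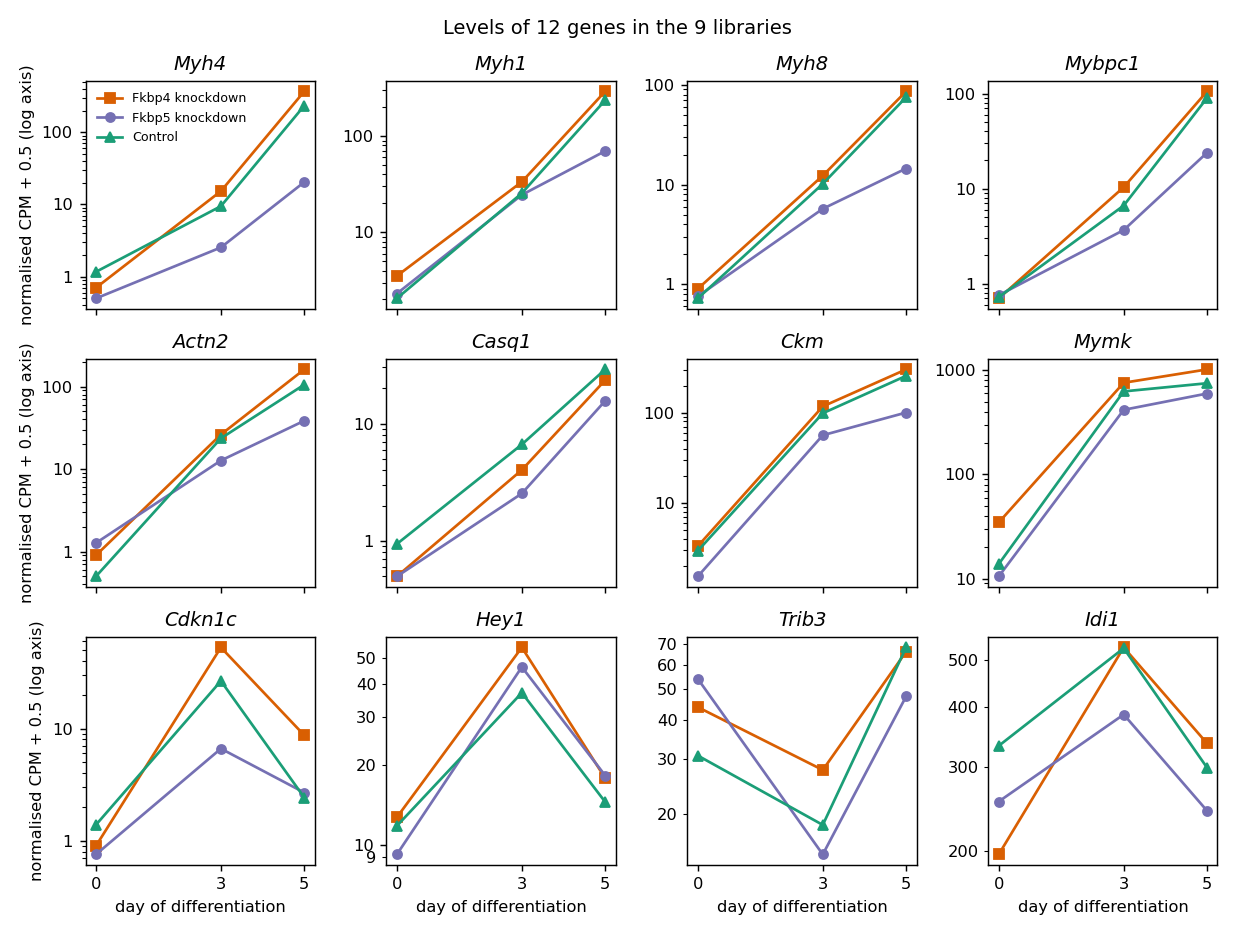
Levels of 12 genes at days 0, 3 and 5 in normalised CPM plus 0.5 (vertical axes, log scale, a range for each gene) with 1 point per library, and lines joining the 3 libraries of a genotype. The contractile and calcium genes climb at each step, and the Fkbp5 knockdown has the lowest Myh4, at 19.9 CPM at day 5 against 233 CPM in the Control. Cdkn1c, Hey1 and Idi1 are highest at day 3, and Trib3 is lowest at day 3.

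The excitation-contraction coupling list, which holds the calcium channels, pumps and buffers of the muscle membrane system, had 18 of 29 members higher and none lower, with a median of 0.76. Casq1, the fast calsequestrin that stores calcium in the sarcoplasmic reticulum, had 22.9, 15.1 and 28.4 CPM at day 5 in the Fkbp4 knockdown, the Fkbp5 knockdown and the Control, against 3.53, 2.04 and 6.14 CPM at day 3 (2.54, SE 0.21, adjusted p = 0.00103). Atp2a1, the fast calcium pump SERCA1, had 769, 212 and 675 CPM at day 5 against 204, 98.0 and 148 CPM at day 3 (1.75, SE 0.19, adjusted p = 0.00194). Neither gene overlapped between days, although for Atp2a1 the Fkbp5 knockdown at day 5 was barely above the highest day 3 library. Scn4a, the sodium channel of the muscle action potential, rose by 2.10 (SE 0.19, adjusted p = 0.00124), Cacna1s, the voltage sensor of the transverse tubule, by 1.24 (SE 0.11, adjusted p = 0.00124) and Cacnb1, its beta subunit, by 0.80 (SE 0.09, adjusted p = 0.00252). Without the Control pair 8 members of the list were called higher, and without the Fkbp4 knockdown pair 13.

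Of 16 tested acetylcholine receptor and endplate genes 5 rose. Chrng, the fetal gamma subunit of the receptor, had 617, 316 and 440 CPM at day 5 in the Fkbp4 knockdown, the Fkbp5 knockdown and the Control, against 341, 148 and 256 CPM at day 3 (0.91, SE 0.10, adjusted p = 0.00244), and Chrnd, the delta subunit, rose by 0.75 (SE 0.12, adjusted p = 0.00926). Each genotype rose for both genes, but the groups overlapped because the Fkbp5 knockdown was low at both days. Colq, the collagen tail that anchors acetylcholinesterase, rose by 1.81 (SE 0.26, adjusted p = 0.00685). The calls of Colq and Chrnd ended without the Control pair (adjusted p = 0.0557 and 0.0682). Of 21 tested genes of the dystrophin-glycoprotein complex and laminin receptors 4 rose, led by Cav3, muscle caveolin (1.52, SE 0.18, adjusted p = 0.00336), and Sntb1, a syntrophin, fell by 0.57 (SE 0.10, adjusted p = 0.0167), a call not made without the Control pair (adjusted p = 0.136).

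Few calls were made in the fusion list between the 2 days. Of 21 tested members none was called higher and 1 lower, with a median of -0.13, and 4 were called lower without the Fkbp5 knockdown pair. The change was negative in all 3 genotypes for 9 of the 21 and positive in all 3 for 3. Among the 10781 tested genes described it was negative in all 3 for 2392 and positive for 2449. The member called lower was Cdh15, M-cadherin, which joins myoblasts before they fuse. It had 343, 293 and 293 CPM at day 5 and 603, 462 and 432 CPM at day 3 in the Fkbp4 knockdown, the Fkbp5 knockdown and the Control (-0.68, SE 0.10, adjusted p = 0.00729), with no overlap between days, and its call ended without the Control pair (adjusted p = 0.0577). Mymk, the fusogen myomaker, had 1020, 598 and 751 CPM at day 5 and 759, 417 and 627 CPM at day 3. It was higher at day 5 in each genotype but missed the threshold (0.40, SE 0.11, adjusted p = 0.0729), and DESeq2 called it (adjusted p = 0.0122). Mymx, the fusogen myomixer, had 78.3, 57.3 and 66.3 CPM at day 5 and 85.0, 38.3 and 106 CPM at day 3, with no common change (-0.10, SE 0.20, adjusted p = 0.802).

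Of 21 tested genes of the creatine kinase and glycolysis list 8 rose, with a median common change of 0.43 and medians of 0.36 in the Fkbp4 knockdown, -0.08 in the Fkbp5 knockdown and 0.20 in the Control. Ckm, muscle creatine kinase, had 302, 100 and 256 CPM at day 5 in that order of genotypes, against 117, 55.8 and 98.2 CPM at day 3 (1.21, SE 0.12, adjusted p = 0.00165). The Fkbp5 knockdown at day 5 stood at about the level of the other genotypes at day 3. Mb, myoglobin, was instead highest in the Fkbp5 knockdown, with 75.7, 316 and 197 CPM at day 5 and 26.1, 66.0 and 70.3 CPM at day 3 (1.78, SE 0.16, adjusted p = 0.00124). Pgam2, muscle phosphoglycerate mutase, rose by 1.22 (SE 0.10, adjusted p = 0.00103). Of 25 tested genes of fatty acid oxidation and mitochondrial biogenesis 6 rose, led by Cd36, the fatty acid transporter, with 42.9, 15.3 and 40.2 CPM at day 5 and 3.88, 4.08 and 8.97 CPM at day 3 (2.55, SE 0.28, adjusted p = 0.00209). Fabp3, the muscle fatty acid-binding protein, of whose 31-base words 50.1% occur in another gene, rose by 1.31 (SE 0.17, adjusted p = 0.00472), while Fabp5, the epidermal form, fell by 1.29 (SE 0.14, adjusted p = 0.00194). Of 78 tested nuclear-encoded subunits of oxidative phosphorylation, Cox6a2, the muscle form of a cytochrome oxidase subunit, rose (0.88, SE 0.17, adjusted p = 0.024) and none fell.

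**Figure D4:**
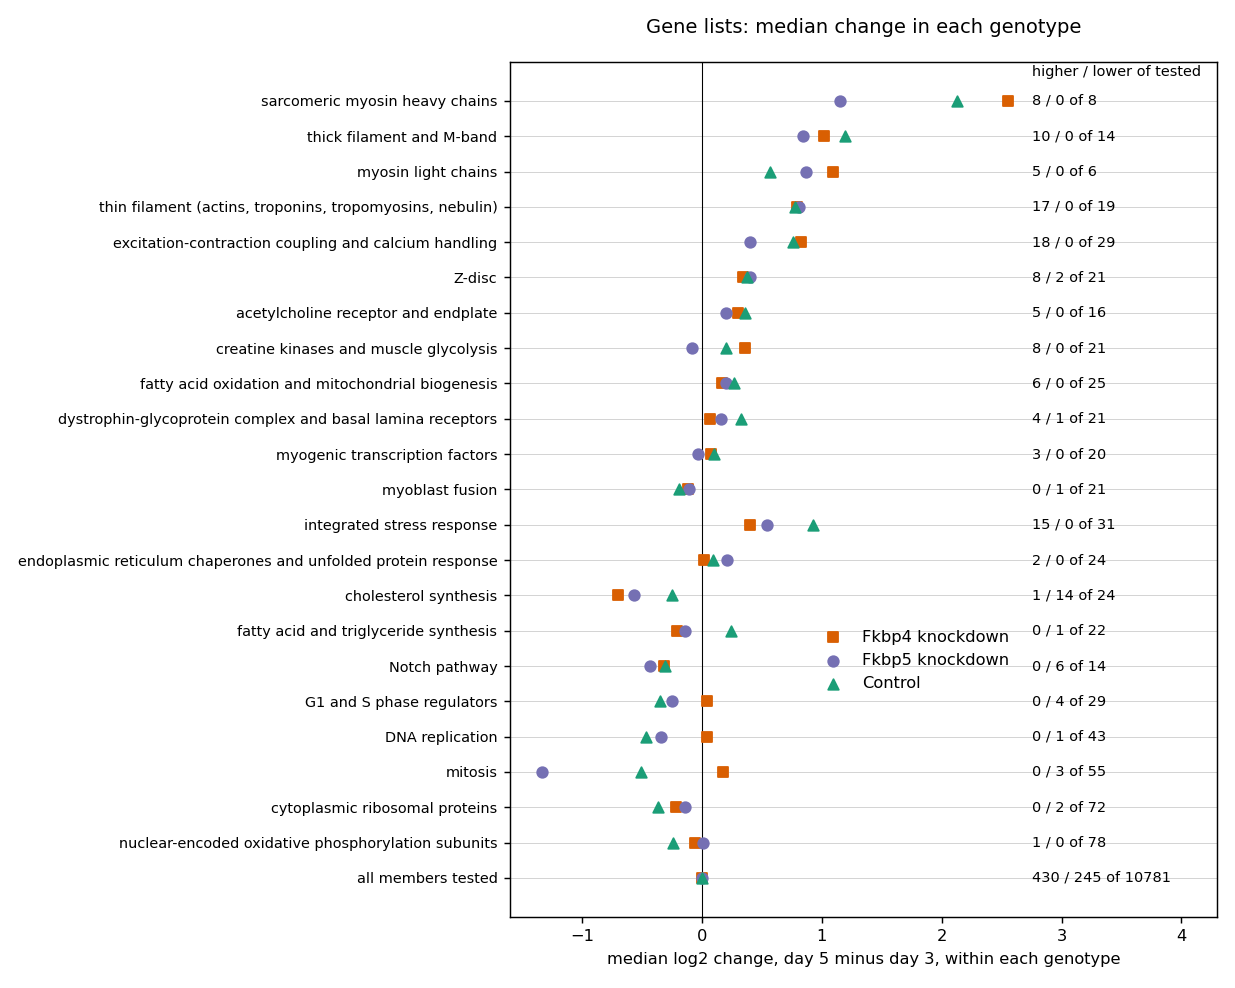
Median log2 change between day 5 and day 3 of the tested members of 22 gene lists and of all genes described, within each genotype (horizontal axis, points by genotype), with the counts called higher and lower at the right. Heavy chains lie farthest right, at 2.55 in the Fkbp4 knockdown, 1.15 in the Fkbp5 knockdown and 2.13 in the Control. The mitosis list splits the genotypes, at 0.18, -1.33 and -0.51 in that order.

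The integrated stress response list holds targets of Atf4, a factor whose translation increases when translation initiation is restrained. Of its 31 tested members 15 rose and none fell, with a median of 0.63. Trib3, a pseudokinase induced by Atf4, had 65.6, 47.0 and 67.7 CPM at day 5 in the Fkbp4 knockdown, the Fkbp5 knockdown and the Control, against 27.1, 14.3 and 17.9 CPM at day 3 (1.61, SE 0.15, adjusted p = 0.00124). At day 0 it had stood at 43.4, 53.6 and 30.2 CPM, so that day 3 was its low point in each genotype. Ddit3, the factor CHOP, had 68.4, 72.2 and 67.0 CPM at day 5 against 36.1, 31.5 and 38.5 CPM at day 3 (0.97, SE 0.11, adjusted p = 0.00319). Asns, asparagine synthetase, had 105, 82.9 and 122 CPM at day 5 against 71.2, 50.3 and 41.8 CPM at day 3 (0.92, SE 0.17, adjusted p = 0.0207). None of these overlapped between days, and Asns was not called without the Control pair (adjusted p = 0.0688). Fgf21, a secreted hormone made by muscle under stress, rose 4.01-fold from few reads, with 16.8, 11.2 and 10.6 CPM at day 5 and 5.29, 1.81 and 2.60 CPM at day 3 (2.0, SE 0.25, adjusted p = 0.00398). Atf4 mRNA itself changed by 0.28 and was not called.

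The median change of the stress list was 0.40 in the Fkbp4 knockdown, 0.54 in the Fkbp5 knockdown and 0.93 in the Control. Without the Control pair 4 of the 31 were called, where 122 of all genes described were called higher against 430 with it, and without the Fkbp4 knockdown pair 18 of the 31 were called. Of 24 tested chaperones of the endoplasmic reticulum and the unfolded protein response 2 rose, Herpud1 (0.96, SE 0.12, adjusted p = 0.00426) and Dnajb9 (0.52, SE 0.09, adjusted p = 0.0172), and the list median was 0.10. Dnajb9 was called neither without the Control pair (adjusted p = 0.119) nor without the Fkbp4 knockdown pair (adjusted p = 0.0952).

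A CARE, the element read by Atf4 with its C/EBP partners, was searched as TTGCATCA on both strands in the same promoter windows. It was found in 3 of 17 windows (17.6%) of the 13 called stress genes with a window, and in 0.895% of all 32851 windows. The 3 are shown because they hold the exact word: chr7:45615582-45615669 on the - strand for Fgf21, chr7:126625533-126625620 on the - strand for Nupr1, a small chromatin protein induced by stress, and chr19:27216780-27216867 on the + strand for Vldlr, a lipoprotein receptor (RefSeq, GRCm38.p6). The capitals mark the element, which starts at positions -139, -110 and -200.
Fgf21: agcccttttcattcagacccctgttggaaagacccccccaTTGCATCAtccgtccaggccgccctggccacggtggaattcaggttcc
Nupr1: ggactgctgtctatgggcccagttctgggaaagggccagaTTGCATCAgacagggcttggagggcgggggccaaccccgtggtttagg
Vldlr: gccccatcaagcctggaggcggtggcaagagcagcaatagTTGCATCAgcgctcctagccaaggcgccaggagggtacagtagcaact

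Nupr1 rose by 0.91 (SE 0.12, adjusted p = 0.00543) and Vldlr by 1.27 (SE 0.21, adjusted p = 0.011). Both calls ended without the Control pair (adjusted p = 0.0527 and 0.0966).

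Cholesterol synthesis went the other way. Of 24 tested genes 14 fell and Ebp, a sterol isomerase of the pathway, rose, with a median of -0.53. Idi1, which isomerises the first isoprenoid unit, had 335, 242 and 298 CPM at day 5 in the Fkbp4 knockdown, the Fkbp5 knockdown and the Control, against 532, 385 and 530 CPM at day 3 (-0.72, SE 0.10, adjusted p = 0.00512). Day 0 was 196, 253 and 331 CPM, so that day 3 was its high point in each genotype. Lss, lanosterol synthase, had 90.9, 44.8 and 78.1 CPM at day 5 against 178, 105 and 96.3 CPM at day 3 (-0.83, SE 0.16, adjusted p = 0.0221). Neither gene overlapped between days, though in the Control the fall of Lss was the smallest. The median of the list was -0.70 in the Fkbp4 knockdown, -0.57 in the Fkbp5 knockdown and -0.25 in the Control, and 4 were called lower without the Fkbp4 knockdown pair and 6 without the Control pair. Idi1 was lost without the Control pair (adjusted p = 0.0648), and so was Ebp (adjusted p = 0.207). Of 22 tested genes of fatty acid and triglyceride synthesis, Elovl6, a fatty acid elongase, fell (-0.73, SE 0.14, adjusted p = 0.0203), a call lost without the Fkbp4 knockdown pair (adjusted p = 0.0571). A sterol regulatory element of the letters TCACNCCAC was found in 1 of 12 promoter windows held by 11 of the 14 genes, that of Hmgcs1, and in 1.24% of all windows.

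**Figure D5:**
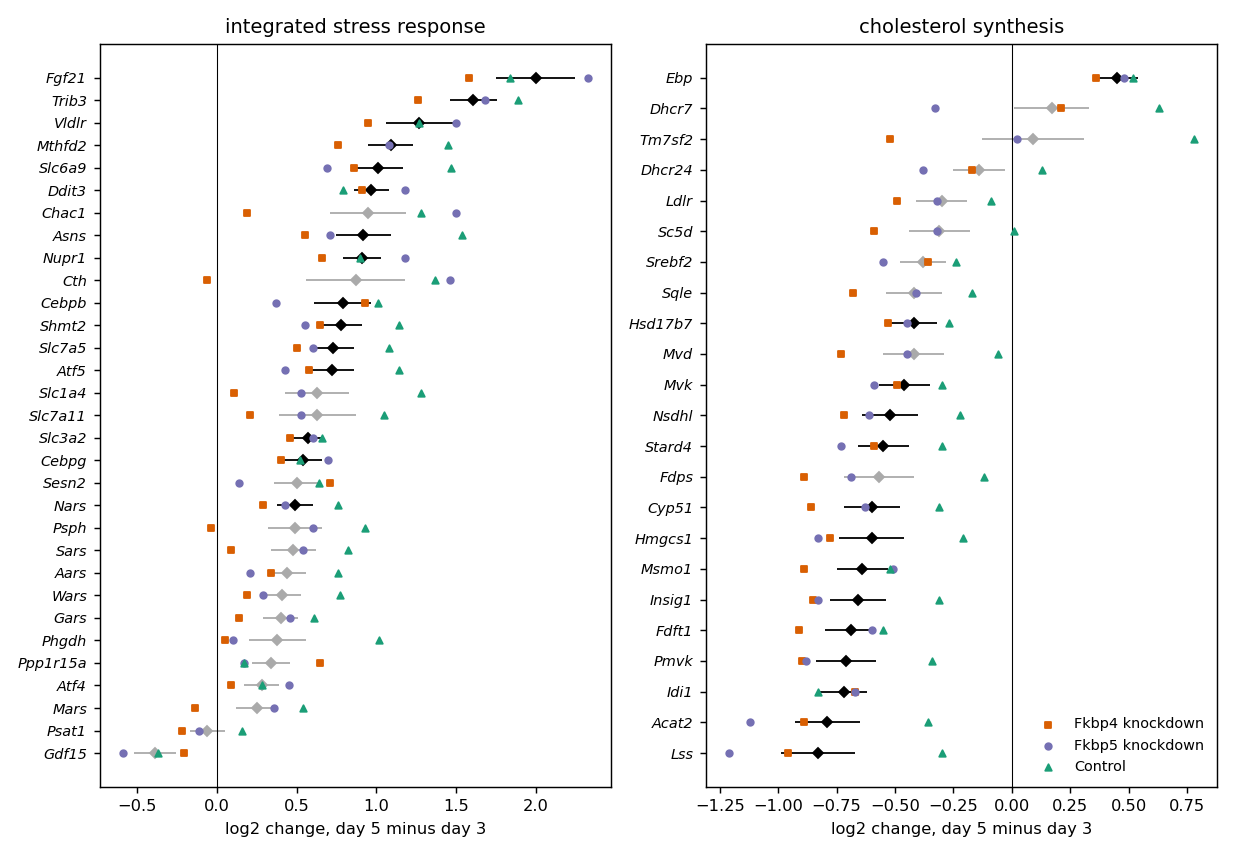
Log2 change between day 5 and day 3 of members of the integrated stress response list and of the cholesterol synthesis list, with 1 tested member of the second not drawn (horizontal axes). Diamonds with bars are the common change and its SE, black where called and grey where not, and coloured points are the 3 genotypes. Fgf21 at 2.0 and Trib3 at 1.61 head the first list, and Lss at -0.83 is the lowest of the second.

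Of 14 tested members of the Notch pathway 6 fell, none rose, and the median was -0.29. Hey1, a repressor switched on by Notch, had 17.3, 17.7 and 14.0 CPM at day 5 in the Fkbp4 knockdown, the Fkbp5 knockdown and the Control, against 54.3, 45.8 and 36.6 CPM at day 3, a 2.78-fold fall (-1.48, SE 0.13, adjusted p = 0.00124). At day 0 it had been at 12.2, 8.73 and 11.3 CPM, below its day 5 level in each genotype. Its relative Heyl fell by 1.04 (SE 0.12, adjusted p = 0.00323). Among receptors, Notch3 had 114, 144 and 109 CPM at day 5 against 223, 260 and 168 CPM at day 3 (-0.82, SE 0.10, adjusted p = 0.00381). Notch1 fell by 0.70 (SE 0.15, adjusted p = 0.0354), Notch2 by 0.62 (SE 0.11, adjusted p = 0.0184) and the ligand Dll1 by 0.73 (SE 0.15, adjusted p = 0.0252), and these last 3 calls ended without the Control pair (adjusted p = 0.14, 0.0914 and 0.171). Hes1, another Notch target, changed by -0.13 and Rbpj, the DNA-binding partner of the receptors, by -0.28, and neither was called. The RBPJ word GTGGGAA was found in none of 5 windows held by 4 of the genes that fell and in 6.38% of all windows.

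Cdkn1c, the CDK inhibitor p57 (chr7:143458339-143461050, - strand), had the largest fall of the protein-coding genes described. It had 8.21, 2.19 and 1.93 CPM at day 5 in the Fkbp4 knockdown, the Fkbp5 knockdown and the Control, against 52.2, 6.12 and 26.0 CPM at day 3, and 0.401, 0.257 and 0.888 CPM at day 0. Each genotype fell, but the groups overlapped since the Fkbp4 knockdown at day 5 stood above the Fkbp5 knockdown at day 3 (-2.72, SE 0.30, adjusted p = 0.00244). Of its 31-base words 27.2% occur in another gene. Cdkn1a, the inhibitor p21, had 1650, 875 and 1240 CPM at day 5 and 1440, 915 and 1200 CPM at day 3, with no common change (0.06, SE 0.12, adjusted p = 0.793). Of the 8 tested CDK inhibitors and pocket proteins Cdkn1c was the one called.

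Few members of the G1 and S phase, replication and mitosis lists were called, 4 of 29, 1 of 43 and 3 of 55, all of them lower. Of all tested genes described, 2.27% were called lower, and the replication count is near that share. Cdk4, the G1 kinase in the series title, had 240, 300 and 249 CPM at day 5 in the Fkbp4 knockdown, the Fkbp5 knockdown and the Control, against 341, 315 and 377 CPM at day 3. No library overlapped between days, but the change missed the threshold (-0.39, SE 0.12, adjusted p = 0.102), and it passed without the Fkbp5 knockdown pair (-0.56, adjusted p = 0.00794). Among 29 tested G1 and S phase regulators 4 fell: Skp2, a ubiquitin ligase subunit that marks p27 for destruction, by 1.01 (SE 0.17, adjusted p = 0.0122), the transcription factor E2f2 by 0.56 (SE 0.11, adjusted p = 0.0201), and the kinases Cdk6 and Cdk2 by 0.54 (SE 0.12, adjusted p = 0.0406) and 0.51 (SE 0.10, adjusted p = 0.0239). None of the 4 was called without the Control pair (adjusted p from 0.0577 for Skp2 to 0.197 for Cdk2), and Cdk6 and Cdk2 were also lost without the Fkbp4 knockdown pair (adjusted p = 0.145 and 0.109). Of 43 tested replication genes Mcm5, a subunit of the replicative helicase, fell (-0.84, SE 0.14, adjusted p = 0.0119) and none rose, and Mcm5 was lost without the Control pair (adjusted p = 0.0992).

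The mitosis list had a median of -0.54 with 3 of 55 members lower. Pttg1, securin, had 17.9, 12.5 and 14.5 CPM at day 5 in the Fkbp4 knockdown, the Fkbp5 knockdown and the Control, against 33.0, 41.3 and 27.4 CPM at day 3 (-1.17, SE 0.19, adjusted p = 0.0104). Bub1, a checkpoint kinase, fell by 1.00 (SE 0.23, adjusted p = 0.04) and Ube2s, an ubiquitin-conjugating enzyme of the anaphase complex, by 0.51 (SE 0.10, adjusted p = 0.0216), and both calls ended without the Control pair (adjusted p = 0.21 and 0.138), that of Bub1 also without the Fkbp5 knockdown pair (adjusted p = 0.0656). The list's median change was 0.18 in the Fkbp4 knockdown, -1.33 in the Fkbp5 knockdown and -0.51 in the Control, and 37 members were called lower without the Fkbp4 knockdown pair. Kif20a, a kinesin of late mitosis, had 62.1, 31.7 and 45.8 CPM at day 5 against 70.9, 123 and 74.6 CPM at day 3. The Fkbp5 knockdown had the most Kif20a at day 3 and the least at day 5, and its change was lower than that of the other 2 genotypes by -1.52 (SE 0.23, adjusted p = 0.0362).

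Among secreted and matrix genes, 5 of 34 tested glycoproteins and matricellular proteins rose and 2 fell. Postn, periostin, had 52.8, 150 and 120 CPM at day 5 in the Fkbp4 knockdown, the Fkbp5 knockdown and the Control, against 14.1, 47.2 and 33.0 CPM at day 3 (1.8, SE 0.10, adjusted p = 0.000215). Each genotype rose by a like factor and the Fkbp4 knockdown was lowest at both days. Spp1, osteopontin, had 457, 643 and 675 CPM at day 5 against 282, 299 and 281 CPM at day 3 (1.02, SE 0.13, adjusted p = 0.00383), after 5690, 6280 and 7970 CPM at day 0. Fbln1, fibulin 1, was among the larger falls (-1.44, SE 0.25, adjusted p = 0.0158), a call lost without the Control pair (adjusted p = 0.0585). In the insulin-like growth factor axis Igf2, the autocrine factor of myoblast differentiation, had 270, 129 and 232 CPM at day 5 against 136, 60.1 and 126 CPM at day 3 (0.98, SE 0.09, adjusted p = 0.00139), and 63.1% of its 31-base words occur in another gene. Igfbp2, a binding protein for these factors, had 212, 184 and 163 CPM at day 5 against 396, 312 and 393 CPM at day 3 (-0.97, SE 0.12, adjusted p = 0.00323).

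Whether the knockdowns altered the step to day 5 was asked gene by gene, as the change in a knockdown minus the change in the other 2 genotypes. For the Fkbp5 knockdown 34 genes were called (0.280% of those tested), 18 with a more positive change and 16 with a more negative one, and for the Fkbp4 knockdown 26 (0.214%), 14 and 12. Of these 11 and 18 were pseudogenes or predicted genes, and 3 and 0 were mitochondrial. In DESeq2 10 and 7 genes were called. Each rests on a single pair of libraries for the knockdown, with 1 residual degree of freedom.

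The genes called for the Fkbp5 knockdown include Myh1, Neb, Ryr1 and Pygm, all with a smaller rise there. Other muscle genes had differences of the other sign that were not called, among them Csrp3 (0.93, adjusted p = 0.165), Mb (0.75, adjusted p = 0.167), Casq1 (0.43, adjusted p = 0.804), Tcap (0.21, adjusted p = 0.932) and Acta1 (0.19, adjusted p = 0.739). Myh1 rose by 1.51 in the Fkbp5 knockdown, against 3.13 in the Fkbp4 knockdown and 3.21 in the Control, a difference of -1.65 (SE 0.20, adjusted p = 0.0142). Neb, nebulin, the ruler of the thin filament, had 231, 84.6 and 207 CPM at day 5 in the Fkbp4 knockdown, the Fkbp5 knockdown and the Control, against 63.6, 57.6 and 59.9 CPM at day 3, a difference of -1.27 (SE 0.18, adjusted p = 0.0327). Ryr1, the calcium release channel, had 482, 267 and 427 CPM at day 5 against 210, 234 and 179 CPM at day 3, a difference of -1.04 (SE 0.16, adjusted p = 0.0362). Pygm, muscle glycogen phosphorylase, had 250, 69.1 and 195 CPM at day 5 against 73.5, 44.7 and 58.8 CPM at day 3, a difference of -1.12 (SE 0.18, adjusted p = 0.0462). At day 3 the Fkbp5 knockdown held the most Ryr1 and was the lowest for the other 3 genes, and at day 5 it was the lowest for all 4. The other direction held Hspa8, the constitutive Hsp70, with 3210, 3830 and 3260 CPM at day 5 against 4180, 1770 and 3480 CPM at day 3 (1.35, SE 0.19, adjusted p = 0.0314), and Ccn2, a matrix protein downstream of TGF-beta, with 13.9, 121 and 51.1 CPM at day 5 against 9.69, 30.8 and 36.3 CPM at day 3 (1.47, SE 0.21, adjusted p = 0.0344). In DESeq2 the difference remained called for Hspa8 and for none of the other 7 genes named for it here, and with the described genes alone tested it remained for Myh1 (adjusted p = 0.0304) and Hspa8 (adjusted p = 0.0405). The part of the raised mitochondrial share of the day 5 Fkbp5 knockdown library in these differences was not tested. Of the 31-base words of Hspa8 44.8% occur in another gene, so that its reads may have been lost or shared.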

How the data were processed

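Each library's file held counts: the authors deposited whole-number read counts per Ensembl gene, with no normalisation. Per the submitters' processing notes, CASAVA 1.8, HISAT2 2.0.2, Subread and featureCounts 1.4.6 were used with the build mm10. How reads with several alignments were counted is not given in the sources used here. The TruSeq RNA v2 kit does not mark strand, so overlapping and antisense genes cannot be told apart.

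Of 47728 identifiers 47309 were matched to GENCODE M21 (GRCm38). In R 4.3.3, edgeR 4.0.16 kept genes with filterByExpr, scaled with TMM and fitted quasi-likelihood models to the 6 libraries with terms for genotype and for day (2 residual degrees of freedom). Libraries were paired by their genotype, as the labels give it. Tests were two-sided with Benjamini-Hochberg adjustment over all 12122 genes tested. An SE is the log2 fold change over the root of its F. Changes within a genotype add 0.5 CPM. Zero reads allow up to 3 counts, or 0.529 to 0.723 CPM.

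The fits were tested on simulated data. Alternatives were DESeq2 1.42.0, RLE scaling, no filter, the described genes alone, all 9 libraries, no genotype term, and each library or pair left out.

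Always named were Fkbp4, Fkbp5, Cdk4, Myod1, Myog, Mymk, Mymx, Ckm, Cdkn1a and 6 myosin heavy chains; further the 12 largest called changes in each direction, up to 4 per list, and 5 per direction for differences between genotypes. Other called list members and motifs were chosen after their values were seen. The genes described and the lists were chosen with earlier results of these data known. Some genes are not reported here.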

Additional observations from a re-analysis of the deposited data

Results flagged for a closer look

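Nuclear genes were flagged where the change from day 3 to day 5 in 1 knockdown differed from the other 2 genotypes in edgeR's test. Mitochondrial genes, which are not among the genes described, were flagged where they stood far above the Control. Values are differences of log2 changes, the knockdown minus the other 2 genotypes.

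In the Fkbp5 knockdown the change was lower for Myh1 (-1.65), Neb (-1.27), Pygm (-1.12), Ryr1 (-1.04) and Palld (-1.05), which encodes an actin-binding protein, and for Col12a1 (-1.29), Kif20a (-1.52), Foxred2 (-2.96), Erh (-1.32), Ubr4 (-1.2) and Dync1h1 (-1.04). It was higher for Myog (1.01), C1qtnf3 (1.23), Hspa8 (1.35), Ccn2 (1.47), Rpl41 (1.88), Cir1 (2.12), Mpc1 (2.33), Rps23 (4.09) and Sumo2 (4.22). Foxred2 had 17.3, 5.25 and 13 CPM at day 5 in the Fkbp4 knockdown, the Fkbp5 knockdown and the Control. At day 3 it had 4.05, 9.98 and 3.30 CPM, so that the Fkbp5 knockdown moved opposite to the others. Among the genes of this paragraph, the share of 31-base words that occur in another gene ran from 0% for Foxred2 to 53.4% for Erh. It was 44.8% for Hspa8, 42.1% for Cir1 and 38.6% for Rps23.

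In the Fkbp4 knockdown the change was lower for Ramac (-2.44), Hmga1 (-2.34) and Aph1a (-1.95), and higher for Cks2 (1.5), Tax1bp3 (1.65), Ptn (1.84) and Gapdh (1.94). Gapdh, often used as a constant standard, had 107, 106 and 97.3 CPM at day 5 against 28.0, 112 and 92.5 CPM at day 3, in the same order of genotypes. Only the Fkbp4 knockdown at day 3 stood apart. Of the 31-base words of Gapdh 28.1% occur in another gene. For the other genes of this paragraph the share ran from 1.38% for Ptn to 62.1% for Hmga1.

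Pseudogenes and predicted genes gave the widest values. In the Fkbp5 knockdown these were Gm10268 (-6.36), Gm5561 (-6.13), Gm9396 (-5.13), Rpl34-ps1 (-4.91), Ppp1r2-ps1 (-4.27), Gm15464 (5.24), Gm6525 (5.38) and Rps19-ps4 (6.97). In the Fkbp4 knockdown these were Rpl31-ps4 (-12.84), Gm27529 (-10.78), Gm9826 (-8.9), Gm13573 (-7.63), Gm13413 (-7.2), Rps12-ps3 (5.12), Gm13690 (5.68), Gm7867 (5.88), Rpl31-ps11 (6.97), Gm13864 (7.82) and Gm5561 (8.42). Several have libraries at 0 reads, so that these fitted values are no bounds.

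Among mitochondrial genes in the Fkbp5 knockdown at day 5, mt-Nd3 had 594 CPM, mt-Nd4l 990 CPM, mt-Co2 11600 CPM and mt-Co3 11100 CPM. In the Control at day 5 the same genes had 0.482, 4.10, 33.5 and 34.7 CPM, and mt-Co2 also had 4570 CPM in the Fkbp4 knockdown at day 5. All but mt-Nd3 were tested. In edgeR mt-Nd4l was called higher at day 5 (6.62, SE 1.14, adjusted p = 0.0139). The Fkbp5 knockdown difference was called for mt-Nd4l (7.49, adjusted p = 0.000185) and mt-Co3 (8.11, adjusted p = 1.56e-07).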

How the results depend on the processing

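The call rests on 3 pairs of libraries without replicates, so that a spread between cultures cannot be told apart from one between genotypes, and low genes rest on few reads. Of 712 calls 458 were higher and 254 lower. DESeq2 gave 302 higher calls, 430 of the 712 called in both; no filter on low counts gave 1628 (864 higher, 764 lower). With no replicate block, that is without the genotype pairing, 48 were called (35 higher, 13 lower). Leaving out a library or pair gave 172 to 1191 calls, 135 to 693 higher and 37 to 498 lower, lowest without the Control pair and highest without the Fkbp5 knockdown at day 5. The cause was not tested. A library left out leaves its partner without a pair in its genotype. These fits therefore largely repeat those without the pair and are no separate checks. No call changed sign under any alternative. Of 201 called genes in the tables of named genes, 17 were called under every alternative, 58 more under all but the missing pairing, and 126 were lost in at least 1 leave-out, 120 of them without the Control pair. For the difference in the Fkbp5 knockdown 34 calls became 10 in DESeq2, 287 with no filter and 11 over the genes described; for the Fkbp4 knockdown 26 became 7 in DESeq2 and 116 with no filter. Among uncalled genes, leave-outs gave -0.38 to 0.132 for Myog, -0.402 to 0.204 for Mymx and -0.006 to 0.123 for Cdkn1a, with the sign reversed at 0.12 to 0.132, 0.201 to 0.204 and -0.006 to -0.003.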

Other observations

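Of 14 tested members of the interferon list 3 were called higher and none lower, where 3.99% of all tested genes described were called higher. They were Ifi27 and the genes of 2 guanylate-binding proteins, Gbp9 and Gbp8. In edgeR the call of Ifi27 ended without the Control pair (adjusted p = 0.0691). It also ended without the Fkbp4 knockdown pair (adjusted p = 0.087) and without the Fkbp5 knockdown pair (adjusted p = 0.0516). Gbp9 had 44.0, 8.09 and 37.3 CPM at day 5 in the Fkbp4 knockdown, the Fkbp5 knockdown and the Control, against 11.3, 4.31 and 7.79 CPM at day 3 (log2 fold change 1.85, SE 0.23, adjusted p = 0.00406 in edgeR). Gbp8 rose by 1.5 (SE 0.17, adjusted p = 0.00254). The change of Gbp9 was 1.92, 0.84 and 2.19 in the same order of genotypes.

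In a list of imprinted genes put together after the values were seen, which therefore shows no direction for such genes, 3 of 10 tested members were called: Igf2 higher, Cdkn1c and Mest lower. The list median was -0.06. Mest, a paternally expressed hydrolase-like gene, had 26.5, 10.1 and 7.47 CPM at day 5 against 53.6, 22.7 and 32.3 CPM at day 3 (-1.36, SE 0.21, adjusted p = 0.00863). Igf2 and Cdkn1c lie in the same imprinted region of mouse chromosome 7.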
